A study of Arabidopsis thaliana with 4 samples.

Results

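The tau class of glutathione transferases (gene symbols GSTU followed by a number) is a plant family of enzymes. These genes were identified on the array as the probe sets whose platform annotation names a single gene with such a symbol. There were 11 of them among 22746 probe sets other than controls, namely GSTU15, GSTU16, GSTU18, GSTU20, GSTU21, GSTU22, GSTU23, GSTU25, GSTU26, GSTU27 and GSTU28. The RefSeq gene table of assembly TAIR10.1 holds 28 tau-class genes, counting ERD9 (GSTU17), and the other members are not analysed here. A filter on low signals left 6 of the 11 for the test, GSTU16, GSTU18, GSTU21, GSTU22, GSTU25 and GSTU27, and removed 5.

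Glutathione transferases join the tripeptide glutathione to reactive, electrophilic compounds such as herbicides, products of lipid oxidation and some hormones' precursors. The conjugates are carried into the vacuole by ABC transporters of the ABCC family, and glutathione that has been oxidised is reduced again by glutathione reductase. Tau and phi are the large plant classes, and many tau genes are known as early responders to xenobiotics, wounding and oxidative stress, partly through TGA transcription factors. KIN10 is a catalytic subunit of SnRK1, the kinase that is active when plant cells are short of energy.

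The samples were leaf mesophyll protoplasts of Arabidopsis thaliana, leaf cells whose walls had been digested away, from the fifth and sixth leaves of soil-grown plants. Control protoplasts were transfected with control plasmid DNA, and KIN10 protoplasts with a plasmid that expresses KIN10 (AT3G01090), with 1 mg of DNA each. Both were kept in mannitol buffer under light for 6 h, so cell isolation and transfection are common to both groups. Each group had 2 arrays, and the array of each group with the same number forms a pair from 1 pool of protoplasts of 36 plants. The pairs, called experiments 1 and 2, came from different people, soil, plants, growth chambers, DNAs and array facilities. The labels name neither the promoter that drives KIN10 nor the plant genotype.

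The deposited signals are linear intensities, and the median signal of the arrays ran from 275.5 to 521.75. Of 8 mesophyll markers, 4 had a single-gene probe set, and their signals ran from 2004 (PRK, control 1) to 41796 (LHCB4.1, KIN10 2). PRK was higher with KIN10 (log2 change 0.90 ± 0.31, limma adjusted p = 0.0174) and the other 3 mesophyll markers were not called. The guard cell marker FMA (146 to 585.6) and the phloem marker SWEET11 (91.0 to 957) had lower signals, and neither was called. The summed signal of the 4 mesophyll markers was 46772 and 66129 with control DNA and 63484 and 94716 with KIN10 in experiments 1 and 2, and the part of this in the changes below was not tested. No epidermis, trichome or xylem marker of the lists could be read here, so the presence of those cells was not tested. KIN10's own transcript is not analysed here, so the labels were not checked against it.

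With KIN10, GSTU25 and GSTU22 fell and GSTU18 rose, whereas GSTU16, GSTU21 and GSTU27 were not called. GSTU25 was 4.60-fold lower, GSTU22 was 2.59-fold lower and GSTU18 was 1.80-fold higher, as means over 2 experiments after each array had been centred on its median. The called share of the members, 3 of 6, stands beside 30.2% of all 13648 probe sets tested (limma, Benjamini-Hochberg adjusted p under 0.05). For calls of lower signal it was 2 of 6 beside 15.5%, and for calls of higher signal 1 of 6 beside 14.7%. The median log2 change of the 6 tested members was -0.13, beside 0.03 over all probe sets tested. In such bulk RNA, fewer cells of a type and less RNA per cell cannot be told apart. All 3 calls depend on the experiment as a block: without it none was made, with limma adjusted p of 0.302 for GSTU25, 0.464 for GSTU22 and 0.594 for GSTU18, and then 1.27% of all probe sets were called. In that fit 1 of the 6, GSTU25, had an unadjusted p under 0.05. The share of all probe sets at that unadjusted threshold was not worked out.

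**Figure D1:**
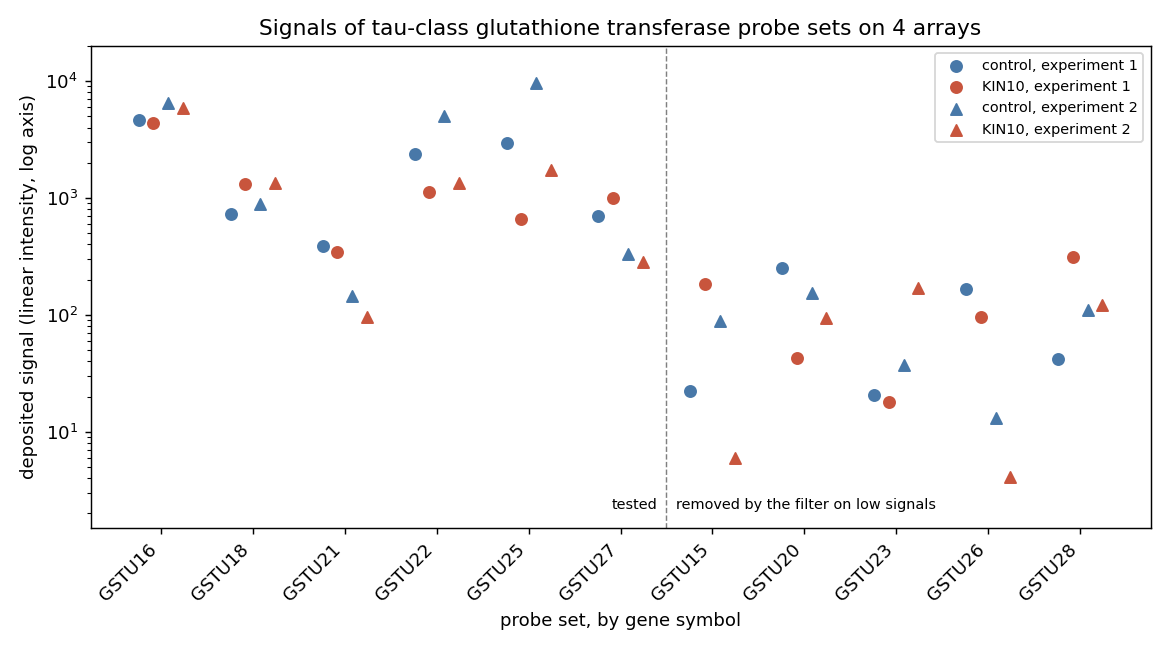
Deposited signal (linear intensity on a log axis) of each tau-class probe set on the 4 arrays, 1 point per array, with circles for experiment 1 and triangles for experiment 2. GSTU25 and GSTU22 lie lower with KIN10 than with control DNA in both experiments, GSTU18 lies higher, and the 5 removed probe sets lie between 4.1 and 314.7.

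GSTU25 (AT1G17180) encodes a tau enzyme known, with its neighbour GSTU24, for conjugating the explosive trinitrotoluene to glutathione. Its signal was 2972 with control DNA and 658.8 with KIN10 in experiment 1, and 9580 and 1745 in experiment 2. Both KIN10 signals lie below both control signals, and experiment 2 is the higher one in either group. The level after centring was 4.60-fold higher in experiment 2 than in experiment 1 with control DNA and 5.02-fold higher with KIN10. The change with KIN10 was nearly equal in both, 4.80-fold lower in experiment 1 and 4.40-fold lower in experiment 2. Over both, the log2 change was -2.20 ± 0.29 (SE, n = 2 arrays per group, limma adjusted p = 5.26e-12). The fold was thus similar from control levels that lay several-fold apart. Of the probe sets tested, 0.901% had a more negative mean change than GSTU25.

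GSTU22 (AT1G78340) lies in a run of tau genes with GSTU23, GSTU21, GSTU20 and GSTU19. Its signal was 2365 with control DNA and 1121 with KIN10 in experiment 1, and 5000 and 1338 in experiment 2. The control signals are both above the KIN10 ones, and they differ more from each other than the KIN10 signals do. After centring, GSTU22 was 2.24-fold lower with KIN10 in experiment 1 and 3.00-fold lower in experiment 2. The log2 change over both was -1.37 ± 0.29 (SE, n = 2 arrays per group, limma adjusted p = 2.26e-05). GSTU22 and GSTU25 were the tested members at least 2-fold lower in both experiments, a pattern that 6.4% of all tested probe sets showed.

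GSTU18 (AT1G10360) neighbours ERD9 (GSTU17), a tau gene known from dehydration responses. Its signal was 729 with control DNA and 1326 with KIN10 in experiment 1, and 883.5 and 1341 in experiment 2. Both KIN10 signals are above both control signals and are almost alike. After centring, GSTU18 was 1.71-fold higher with KIN10 in experiment 1 and 1.89-fold higher in experiment 2. The log2 change was 0.85 ± 0.27 (SE, n = 2 arrays per group, limma adjusted p = 0.00854). When arrays were put on the scale of the 18 hybridization spike-in probe sets, which moves the median change of all tested probe sets from 0.03 to -0.34, the change was 0.48 and GSTU18 was not called (limma adjusted p = 0.127).

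On the deposited signals the groups did not overlap for GSTU18, GSTU22 and GSTU25, which is 3 of 6 tested members beside 50.1% of all tested probe sets. After centring, the groups of all 6 overlapped, where 37.9% of all tested probe sets had groups that did not. For GSTU22 the overlap is narrow, with a centred log2 level of 2.27 for control 1 and 2.28 for KIN10 2. For GSTU25 control 1 (2.60) lies between KIN10 1 (0.34) and KIN10 2 (2.66). After centring, the level of GSTU18, GSTU22 and GSTU25 therefore differed between the experiments by about as much as between the groups. The change is thus read within pairs. This gap depends on the scaling, since the experiments lay closer together as deposited. The deposited KIN10 signals were 1326 and 1341 for GSTU18 and 1121 and 1338 for GSTU22. With 2 arrays against 2, an exact permutation test cannot give a two-sided p below 0.333.

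**Figure D2:**
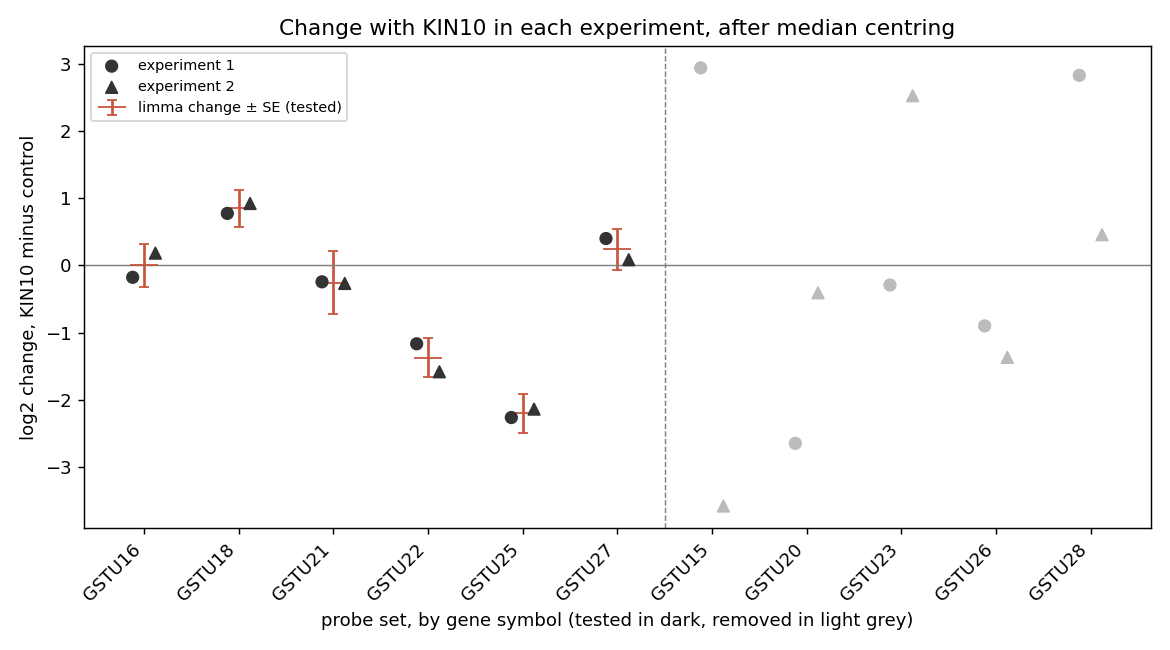
Log2 change (KIN10 minus control, after median centring) of the 11 tau-class probe sets in experiment 1 (circles) and experiment 2 (triangles), with the limma change ± SE for the 6 tested ones. The changes of GSTU25 are -2.26 and -2.14 and those of GSTU18 are 0.77 and 0.92, whereas those of the removed GSTU15 are 2.94 and -3.58.

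GSTU16 (AT1G59700) read 4651 with control DNA and 4377 with KIN10 in the first experiment, and 6483 with control DNA and 5897 with KIN10 in the second. These signals lie at the 89.4th percentile of their array or above, so the probe set is well within the measured range. The log2 change was -0.18 in experiment 1 and 0.18 in experiment 2, which are opposite directions. This depends on the scaling, since both changes were below 0 with the values as deposited (-0.088 and -0.14), after quantile or cyclic loess normalization and on the spike-in scale. The mean change of 0.00 ± 0.32 (SE, n = 2 arrays per group) was not called in limma (adjusted p = 0.998), and its 95% interval runs from -0.62 to 0.63.

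GSTU27 (AT3G43800), which has no tau gene beside it, had signals of 705 and 989.7 with control DNA and KIN10 in experiment 1, and 331.5 and 281.7 in experiment 2. As deposited, KIN10 was the higher signal in experiment 1 and the lower one in experiment 2. After centring the changes were 0.40 and 0.08, and the mean of 0.24 ± 0.31 (SE, n = 2 arrays per group) was not called in limma (adjusted p = 0.612). Its 95% interval runs from -0.36 to 0.84. GSTU21 (AT1G78360), next to GSTU22 on chromosome 1, read 384.7 with control DNA and 345.5 with KIN10 in experiment 1, then 143.8 and 95.7 in experiment 2. In 2 of these 4 values, those of experiment 2, the signal was below the 40th percentile of its array. Its changes after centring, -0.25 and -0.27, lie close together, whereas those as deposited were -0.16 and -0.59. The mean after centring, -0.26 ± 0.47 (SE, n = 2 arrays per group), was not called in limma (adjusted p = 0.741). Its 95% interval, from -1.17 to 0.66, is the widest of the 6 tested members and takes in a 2-fold lower level. In both genes the level differed more between experiments than between groups.

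The tested members thus spread over 3.05 on the log2 scale, from GSTU25 to GSTU18, and this gap was 3.04 in experiment 1 and 3.06 in experiment 2. GSTU22 lay 1.10 above GSTU25 in experiment 1 and 0.56 above it in experiment 2. After centring, the changes of a member in experiments 1 and 2 differed by 0.02 (GSTU21) to 0.42 (GSTU22), with 0.12 for GSTU25 and 0.15 for GSTU18. Over all tested probe sets the median of this difference was 0.41, and 5 of the 6 members were below it. This depends on the scaling. As deposited, the changes lay further apart for GSTU21 (-0.16 and -0.59), GSTU22 (-1.08 and -1.90) and GSTU27 (0.49 and -0.23). They also did for GSTU18 (0.86 and 0.60) and GSTU25 (-2.17 and -2.46), but not for GSTU16 (-0.088 and -0.14). A test of whether a change differs between experiments could not be made, since each has 1 array per group.

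**Figure D3:**
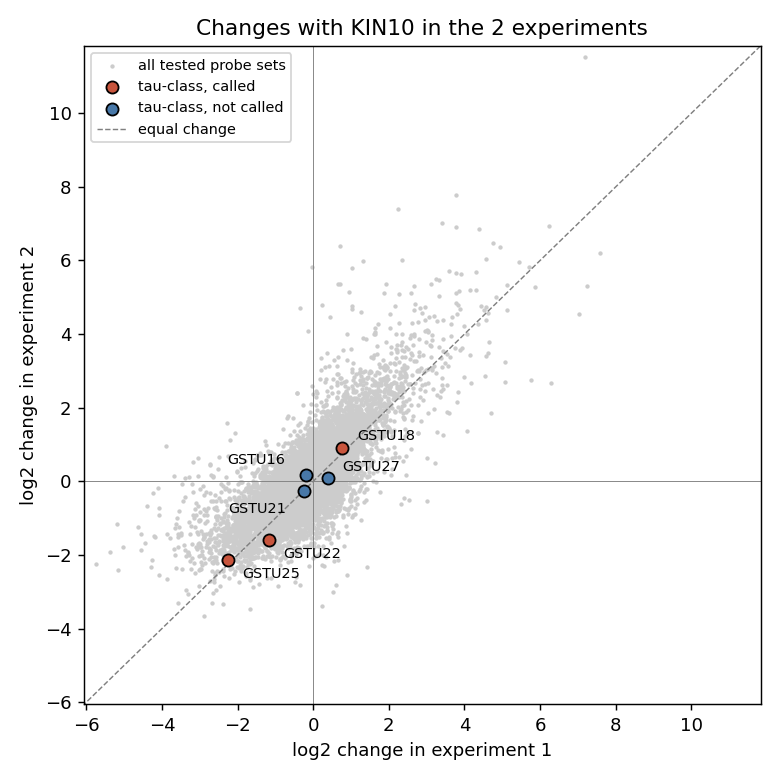
Log2 change with KIN10, after median centring, in experiment 1 (horizontal) against experiment 2 (vertical) for the 13648 tested probe sets in grey and the 6 tested tau-class ones in colour. GSTU25 (-2.26 and -2.14) lies toward the lower end of the cloud and close to the line of equal change, and GSTU16, GSTU21 and GSTU27 lie near the origin.

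Of the 20 signals of the 5 removed members, 18 were below the 40th percentile of their array. Without the filter none was called by limma (adjusted p from 0.165 for GSTU28 to 0.918 for GSTU15), and at an unadjusted p under 0.05 GSTU28 was the 1 past it. Of all probe sets, 7.48% were then called lower and 7.43% higher, and the share at an unadjusted p was not worked out. GSTU20 (AT1G78370), which encodes a protein known to bind the jasmonate-conjugating enzyme JAR1, read 252.0 with control DNA and 42.8 with KIN10 in experiment 1, then 154.7 and 93.5 in experiment 2. The KIN10 signals are the lower ones in both experiments, but 6.27-fold in experiment 1 and 1.33-fold in experiment 2 after centring. GSTU28 (AT1G53680) went the other way, with 41.7 and 314.7 in experiment 1 and 110.2 and 121.2 in experiment 2. GSTU26 (AT1G17190), the neighbour of GSTU25, had 167.1 and 95.3 in experiment 1 and 13.2 and 4.1 in experiment 2. Its KIN10 signals are the lower ones in both, but those of experiment 2 lie at the 11.0th percentile of their array or below. GSTU15 (22.4 and 182.7, then 88.0 and 5.90) and GSTU23 (20.6 and 17.9, then 36.9 and 170.1) moved in opposite directions in experiments 1 and 2. At such signals neither a size nor a direction is settled for these 5 genes.

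Neighbouring tau genes can be set side by side. The called GSTU22 lies beside GSTU21, which was not called, and beside GSTU23, which was removed. GSTU25 lies between GSTU24, which is not analysed here, and GSTU26, which was removed. Of the 28 tau genes of the table, 18 lie on chromosome 1, and 10 of the 11 members do. The array files name no genome build, so no coordinates are given.

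Other genes around glutathione were taken from 8 lists with 108 entries, of which 12 had a single-gene probe set and 10 passed the filter. Of these 10, 1 fell, none rose and 9 were not called by limma (2 lower and 0 higher at an unadjusted p under 0.05), with a median log2 change of -0.20 beside 0.03 over all tested probe sets. Over all tested probe sets 15.5% were called lower and 14.7% higher at an adjusted p under 0.05, and the share at an unadjusted p was not worked out. Lists for glutathione peroxidases, ABCC transporters and TGA factors had no single-gene probe set in the tables used. The gene that fell was UGT73B4 (AT2G15490), a glucosyltransferase of secondary metabolites that is known to respond to electrophiles and pathogens. Its signal was 10521 with control DNA and 3892 with KIN10 in experiment 1, and 10948 and 4262 in experiment 2. The log2 change was -1.28 ± 0.33 (SE, n = 2 arrays per group, limma adjusted p = 0.000587). This call also depends on the block: without it UGT73B4 had a limma adjusted p = 0.576, and with any 1 array left out it was not called either (limma adjusted p from 0.366 upward). Its neighbour UGT73B5 had a change of -0.30 ± 0.32, and AER, an alkenal reductase, 0.13 ± 0.35, and neither was called.

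Among the other classes of the family, GSTL3, a lambda-class gene, read 3329 and 4368 in experiment 1, then 6716 and 8640 in experiment 2, with a change of 0.49 ± 0.32 that was not called in limma (adjusted p = 0.257). The phi-class genes GSTF4 (8.70 to 67.5) and GSTF13 (7.20 to 323.7) were removed by the filter. GR1, the cytosolic glutathione reductase, read 16651 with control DNA and 10240 with KIN10 in experiment 1, then 15856 and 8506 in experiment 2. Its KIN10 signals are the lower ones in both, with a change of -0.69 ± 0.34 (limma adjusted p = 0.114). GR2, the organellar reductase (GR in the table), had a change of 0.23 ± 0.32 and was not called. MDAR2, a monodehydroascorbate reductase, had -0.67 ± 0.34 (limma adjusted p = 0.131) and the sulfite reductase SIR had -0.60 ± 0.34 (limma adjusted p = 0.174). GR1, MDAR2 and SIR were called lower with the values as deposited, with centring on the kept probe sets, and after quantile or cyclic loess normalization, so that 4 of 10 list genes were then lower, where 16.2% to 18.4% of all tested probe sets were. With centring on the kept probe sets the changes of GR1 (-0.70) and MDAR2 (-0.68) were nearly those of the main fit. The limma variance prior had 6.1 to 9.7 degrees of freedom under these scalings, beside 1311 in the main fit. The error estimate thus differed too. The ATP sulfurylase genes APS3 (-0.10 ± 0.33) and APS4 (0.21 ± 0.31) were not called.

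The genes whose 4 centred levels ran most like those of a member were sought among 1038 other tested probe sets with a gene symbol, by the Euclidean distance of log2 values after subtracting each probe set's mean. With 4 arrays many patterns will be close, so these are descriptions. For GSTU22 the nearest was UGT74B1 (distance 0.13), a glucosyltransferase of glucosinolate synthesis, with changes of -1.04 and -1.59 in experiments 1 and 2. It was followed by APL3 (0.43), a subunit of ADP-glucose pyrophosphorylase, and AT-HF (0.47), an enzyme of histidine synthesis. GSTU25 had no such close match, but this distance is not scaled for the size of the changes, which was largest for GSTU25 among the tested members. Its nearest were NDB2 (0.77), an NADH dehydrogenase of the mitochondrion with changes of -2.61 and -1.64, scpl48 (0.82), a serine carboxypeptidase-like gene, and CHX16 (1.00), a cation exchanger. For GSTU18 the nearest were GT-1 (0.04), a trihelix transcription factor with changes of 0.82 and 0.94, INH3 (0.05), an inhibitor of protein phosphatase, and UBC28 (0.09), a ubiquitin-conjugating enzyme. GSTU16 ran most like UBC30 (0.10), PEX4 (0.13) and DPL1 (0.13). The nearest to GSTU27 were BCAT4 (0.11), CCS (0.14) and tny (0.15), and those to GSTU21 were OTP84 (0.16), ENGase85A (0.26) and EXPA15 (0.26).

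**Figure D4:**
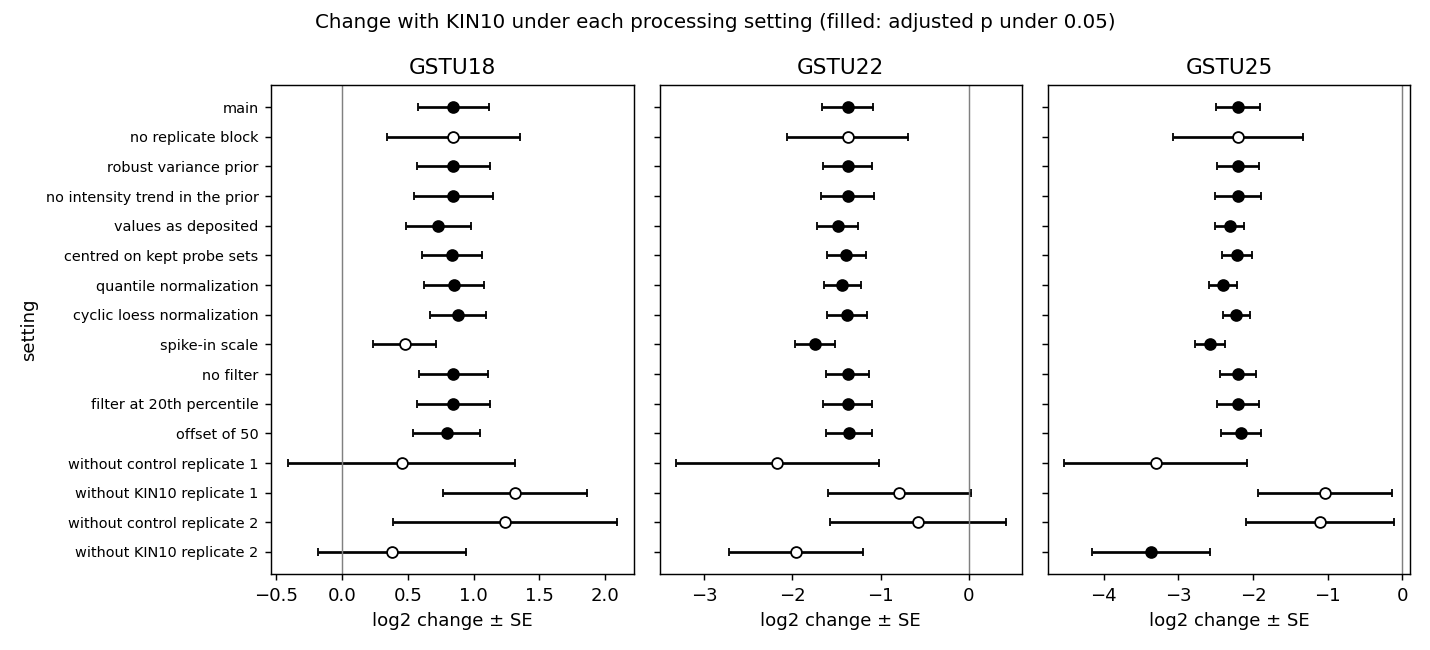
Log2 change ± SE (limma) of GSTU18, GSTU22 and GSTU25 under each processing setting, filled where the adjusted p is under 0.05. GSTU25 and GSTU22 are below 0 in all settings shown and GSTU18 is above 0, and the open points are the settings without the block, those with an array left out (all but GSTU25 without KIN10 replicate 2) and, for GSTU18, the spike-in scale.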

How the data were processed

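Each deposited value is the linear intensity of a probe set, made with GCOS 1.0 per the submitters' processing notes, which give no settings here. The deposited arrays share a trimmed mean of about 1500.13 to 1500.15. Detection calls were not used here. For the log2 scale, 1 value not above 0 was set to its array's smallest positive value. The 64 control probe sets were left out, and arrays were centred on their medians. Probe sets under the 40th percentile of mean log2 signal (9098) were removed, leaving 13648. The linear model of limma 3.58.1 (R 4.3.3) had terms for group and experiment, moderated by eBayes with its trend option, and p-values were adjusted by Benjamini-Hochberg. It was also run on simulated arrays with independent noise and no difference between experiments, which does not bear on the block or the scaling.

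The block follows the design text, which pairs each control with a KIN10 transfection. Same-numbered arrays also deviated together (Pearson r of 0.705 across probe sets, which are not independent). The fit left 1 residual degree of freedom and its variance prior had 1311, so that each SE follows a common trend (0.27 to 0.48) rather than the probe set's own spread, and very small p-values rest on this. Under the other scalings the prior had 6.1 to 13.9 degrees of freedom. Calls under different scalings thus differ in the error estimate as well as in the change. The number of arrays limits the precision. Symbols came from the platform annotation, updated by Entrez number to the RefSeq table. Of the probe sets, 13513 had 1 gene name, 503 several and 8730 none in the tables used.

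Members and lists were chosen with earlier results of these data known. Named were all members, the measured list genes and, for each tested member, the 3 most similar probe sets with a symbol. Alternatives covered the block, the variance prior, scaling, filter, an offset of 50 and leaving out each array. No sequences were used here.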

Additional observations from a re-analysis of the deposited data

How the results depend on the processing

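In 10 of the 11 alternatives that keep all arrays, GSTU25 and GSTU22 stayed called lower. The exception was the fit with no replicate block, in which the changes were the same (-2.20 and -1.37) but not called by limma. GSTU18 was not called with no replicate block (0.85) or on the spike-in scale (0.48). In the other alternatives that keep all arrays it stayed called, in some only narrowly. The limma adjusted p was 0.0475 as deposited, 0.0386 with no filter and 0.0378 with no intensity trend in the prior, and was lowest (0.00734) with an offset of 50. The change of GSTU16, 0.00 as reported, turned sign to -0.11 as deposited, -0.011 with centring on kept probe sets, -0.13 after quantile and -0.075 after cyclic loess normalization, -0.37 on the spike-in scale and -0.015 with an offset of 50. GSTU27 turned to -0.13 on the spike-in scale. Over the whole array, calls fell from 2006 higher and 2111 lower to 122 and 51 with no replicate block, and were 1318 and 4301 on the spike-in scale, where calls of higher signal were fewer. List genes called lower, 1 as reported, were 0 with no replicate block (limma, also 0 at an unadjusted p under 0.05), 4 as deposited, centred on kept probe sets, after quantile or after cyclic loess normalization, and 5 on the spike-in scale. Of all tested probe sets, 0.374% were called lower with no replicate block, 16.2% to 18.4% under the scalings with 4 list genes, and 31.5% on the spike-in scale. For no fit was the share of all probe sets at an unadjusted p worked out. When any 1 array was dropped the block was dropped too, and the change of GSTU25 lay between -3.36, without KIN10 replicate 2, and -1.04, without KIN10 replicate 1. It was called only without KIN10 replicate 2 (limma adjusted p = 0.00186). That of GSTU22 lay between -2.17, without control replicate 1, and -0.58, without control replicate 2. GSTU18 had its lowest value, 0.38, without KIN10 replicate 2 and its highest, 1.32, when KIN10 replicate 1 was left out. GSTU22 and GSTU18 were called in none of these fits. Changes ran from -0.67 to 0.68 for GSTU16, from -0.72 to 0.21 for GSTU21 and from -0.20 to 0.69 for GSTU27. The counts ran from 59 to 697 higher and from 8 to 358 lower over the whole array, with 0 list genes lower (0 or 1 at an unadjusted limma p under 0.05). Without the block, the level gap between experiments enters the change when an array is left out, so these are not changes within pairs. Within pairs, the changes of GSTU25 were -2.26 and -2.14. The part of this gap in the counts was not tested. The remaining array of the shortened group is there assumed to vary like the others.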
